A study of Mus musculus with 20 samples.

Results

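Mature neutrophils in the Mo-MF culture were 744 of the 10235 cells in the 2 single-cell libraries of monocyte-derived macrophages, and of 31683 cells over all 8 single-cell libraries of the study. They were chosen by their own RNA. A member carried at least 100 counts of S100a8 and S100a9 together, fewer than 20 counts of the granule genes Ngp, Camp and Ltf together, and at least 1 count of Csf3r, the receptor for the granulocyte growth factor G-CSF. The 5 marker genes given for these cells were Cxcr2, Asprv1, G0s2, Slfn4 and Stfa2l1. Members were compared with Mo-MF cells of the same library that held fewer than 50 counts of S100a8 and S100a9 together, called S100-low cells here, and with cells that met the S100 and Csf3r limits but held 20 or more granule counts, called granule-rich precursors. Because the groups were cut from measured values, every difference between them is a description and carries no test.

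The study compared mouse macrophages that grew out of bone marrow monocytes (Mo-MF) or bone marrow B cells (B-MF) during 7 days in culture supernatant of the 4T1.2 breast cancer line, and macrophages isolated from 4T1.2 tumors (TAM). Neither the strain of the mice behind the Mo-MF cells nor their age was given in the labels. The paper's methods give young female mice for the study as a whole and name no strain for the Mo-MF libraries. There were 2 Mo-MF, 2 B-MF and 4 TAM libraries, all made as sort-purified suspensions, and the labels name only macrophages in each. Nothing in the labels says that the 2 Mo-MF libraries came from separate cultures or animals, so that the spread between them may be technical. Values are SCTransform-corrected counts per cell, a depth-adjusted scale, and pairs of values give Mo-MF 1 first and Mo-MF 2 second.

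Neutrophils are short-lived phagocytes that mature in bone marrow from promyelocytes through myelocytes to segmented cells. Granule proteins are made in waves along this path: myeloperoxidase and elastase first, lactoferrin and cathelicidin next, gelatinase last. The transcription factor C/EBP-epsilon drives the middle wave, and its RNA is lost as the cells segment. CXCR2, the receptor for the chemokines CXCL1 and CXCL2, appears late and lets mature cells leave the marrow. S100A8 and S100A9 together form calprotectin, the most abundant cytosolic protein of these cells.

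Members made up 7.74% of Mo-MF 1 (375 of 4846 cells, exact binomial 95% interval 7.0 to 8.53%) and 6.85% of Mo-MF 2 (369 of 5389 cells, 6.19 to 7.55%). The B-MF cultures, grown in the same medium, held 3 such cells among 5237 (0.0573%, interval 0.0118 to 0.167%) and 0 among 5326, for which the interval reached 0.0692%. These intervals cover counting error only. The mean share was 7.29% ± 0.630 in Mo-MF and 0.0286% ± 0.0405 in B-MF (SD, n = 2 each), and both Mo-MF libraries lay above both B-MF libraries. A two-sided exact permutation test gave p = 0.333, the smallest that 2 libraries against 2 allow, so that it could not separate them. The rule was also set on the Mo-MF cells, and the shares are a description. The rule also found 160 precursors (92 and 68) and 9244 S100-low cells (4341 and 4903) in the Mo-MF libraries.

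The values that chose the cells spread over a wide range. The median S100a8 and S100a9 count of a member was 518 and 621, with lower quartiles of 234 and 252 and upper quartiles of 1182 and 1159. Csf3r had a median of 9 and 8 counts per member, and the median of the 3 granule genes was 0 in both libraries. Just inside the S100 limit, 76 members with 100 to below 150 counts had a mean of 4.62 Cxcr2 counts, and 66 cells with 50 to 99 counts just outside it had 2.91. At the granule limit, 15 members with 10 to 19 granule counts had 10.5 Cxcr2 and 183 Retnlg counts, and 11 cells with 20 to 39 had 10.8 and 345. For Csf3r, 28 members with a single count had 2.79 Cxcr2 counts and 5 cells with none had 4.40. Cxcr2 RNA was present on both sides of each of the 3 limits.

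The 5 markers set the members apart from the macrophages of the culture, but they were also present in the granule-rich precursors, as given further on, so that the word mature rests on the rule's limit on granule RNA. At least 3 of them were detected in 94.7% and 91.3% of members, against 0.668% and 0.959% of S100-low cells. All 5 were detected in 128 and 124 members, and none in 2 and 4. Members had fewer detected genes than S100-low cells, with medians of 3050 and 3057 against 3893 and 3799, although the medians differed within the members, as given below. The Mo-MF libraries shared 14 cell barcodes, of which 1 in each library was a member and 0 in both.

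Cxcr2 and Stfa2l1 were the markers found in most members. The mean of Cxcr2 was 9.87 and 8.64 counts per member and 0.0445 and 0.0685 per S100-low cell. A count was found in 95.2% and 93.8% of members and in 1.82% and 2.04% of S100-low cells, and after thinning each cell to 10000 counts in 90.9% and 88.6% against 1.27% and 1.41%. Stfa2l1 was found in 94.9% and 94.0% of members and 4.12% and 3.79% of S100-low cells. Here and below a difference is that of log2(mean corrected count + 0.1), members minus the other cells of the library, and for Cxcr2 it was 6.11 and 5.70. The 41 members without a Cxcr2 count (18 and 23) were kept in all values. They held 1.06 and 0.435 Retnlg counts, against 36.9 and 33.7 in the other members, and 3.56 and 7.13 Ccr2 counts, against 1.31 and 1.36. Stfa2l1 was still present in them, at 19.6 and 15.2 counts, against 39.3 and 37.7.

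Stfa2l1, a stefin A gene whose family encodes inhibitors of cysteine proteases, had the highest level of the 5, with 38.3 and 36.3 counts per member against 0.0719 and 0.0853 (log2 difference 7.81 and 7.62). Asprv1, an aspartic protease, had 12.3 and 10.2 counts against 0.0504 and 0.0418 (6.37 and 6.19). Slfn4, a schlafen family gene of myeloid cells, had 5.85 and 5.62 counts against 0.207 and 0.206 (4.28 and 4.23). It was the marker found most often outside the members, in 13.2% and 12.2% of S100-low cells. G0s2, an inhibitor of the lipase that breaks down stored triglyceride, was the most uneven marker. Its mean was 5.46 and 5.20 counts against 0.0191 and 0.0251 (5.54 and 5.40), yet it was detected in only 53.3% and 51.5% of members, and the 10% of members richest in it held 59.1% and 55.0% of its counts.

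Ly6g, the surface protein most used to sort mouse neutrophils, was detected in 32.8% and 38.5% of members, with a mean of 1.90 and 2.36 counts. Levels were far higher in the precursors, at 25.3 and 24.7 counts, and near 0 in S100-low cells, at 0.0104 and 0.00714.

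All members also carried macrophage RNA, in unlike amounts. Apoe was detected in 100% of members of both libraries and Csf1r in 99.2% and 97.3%. The summed count of 20 macrophage markers, among them Apoe, Csf1r, Gpnmb and the C1q genes, lay in 2 ranges among members with few cells between them. A boundary of 450 counts, chosen after the values were seen, put 405 members (54.4%; 207 and 198) below it and 339 (45.6%; 168 and 171) at or above it, with 37 members between 350 and 549. Of the S100-low cells, 3.34% lay below 450. The mean sum was 218 and 216 counts in the lower members and 998 and 1019 in the upper ones, and in S100-low cells it was 1120.1 and 1092. Upper members therefore held nearly as much macrophage RNA as the macrophages of the same culture.

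**Figure D1:**
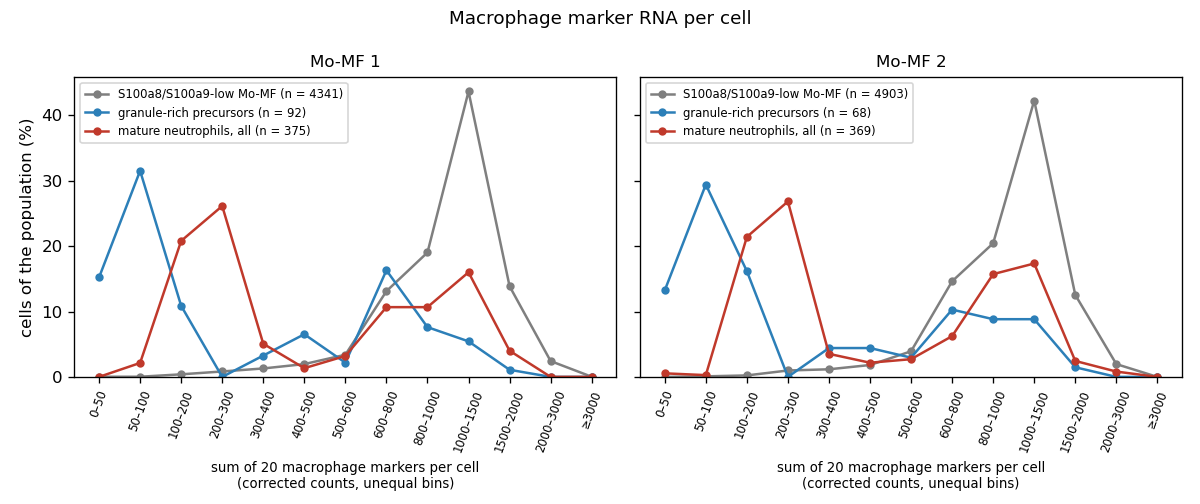
Share of cells (%, vertical axis) by the summed corrected count of 20 macrophage markers per cell (horizontal axis, bins of unequal width) in Mo-MF 1 and Mo-MF 2, for S100-low cells, granule-rich precursors and mature neutrophils. Mature neutrophils form one peak below 450 counts and another above it, where the S100-low cells also lie.

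Macrophage markers in the upper members stood at a median of 97.6% of their mean in S100-low cells, while the neutrophil genes stood at a median of 40.2% of their mean in the lower members. Cxcr2 had 13.4 and 11.8 counts in the lower members and 5.57 and 4.96 in the upper ones. Apoe, the apolipoprotein that macrophages release, showed the opposite, with 53.5 and 49.1 counts in the lower members, 504 and 520.3 in the upper ones and 538 and 522 in S100-low cells. Upper members had more detected genes, with medians of 4159.5 and 3997, than lower members, with 2891 and 2892. Doublets were not removed from these cells, no doublet caller was run, and the part of doublets and of free RNA in the macrophage counts, those of the lower members included, was not tested. Where a list or gene named below passed 4-fold only in the lower members, their values are given beside it or in the paragraph on the lists in these members.

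In the lower members, single macrophage markers differed in how far below the S100-low cells they were, although the boundary on the sum fixes part of this, since Apoe and Ctsd, at 538 and 522 and at 243 and 238 counts in S100-low cells, are the bulk of the sum. Csf1r, the receptor for the macrophage growth factor M-CSF, stood at 62.6% and 64.0% of its level in S100-low cells, and the transcription factor gene Maf at 73.2% and 74.5%. By contrast Apoe stood at 9.96% and 9.39%, the complement gene C1qa at 22.8% and 25.3%, and the engulfment receptor gene Mertk at 5.94% and 3.57%. These ratios differ by several fold between genes of one list within the same cells.

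Members with more S100 RNA had less macrophage RNA. Among members with 100 to below 250 counts of S100a8 and S100a9, 34.7% and 26.1% had a macrophage sum below 450. The share was 45.1% and 42.5%, 56.5% and 53.3%, and 72.9% and 74.6% in the next 3 ranges, which began at 250, 500 and 1000 counts, and it was 97.3% and 97.7% from 2000 counts upward. Retnlg, resistin-like gamma, had the steepest climb over these ranges, from 1.31 and 1.08 counts to 234 and 147. Cxcr2 went from 5.57 and 4.74 to 16.1 and 14.7 counts, and Il1b from 9.50 and 8.16 to 16.9 and 14.9. S100 RNA chose the cells and was counted in the same libraries as these genes, so this describes how members vary and carries no test.

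**Figure D2:**
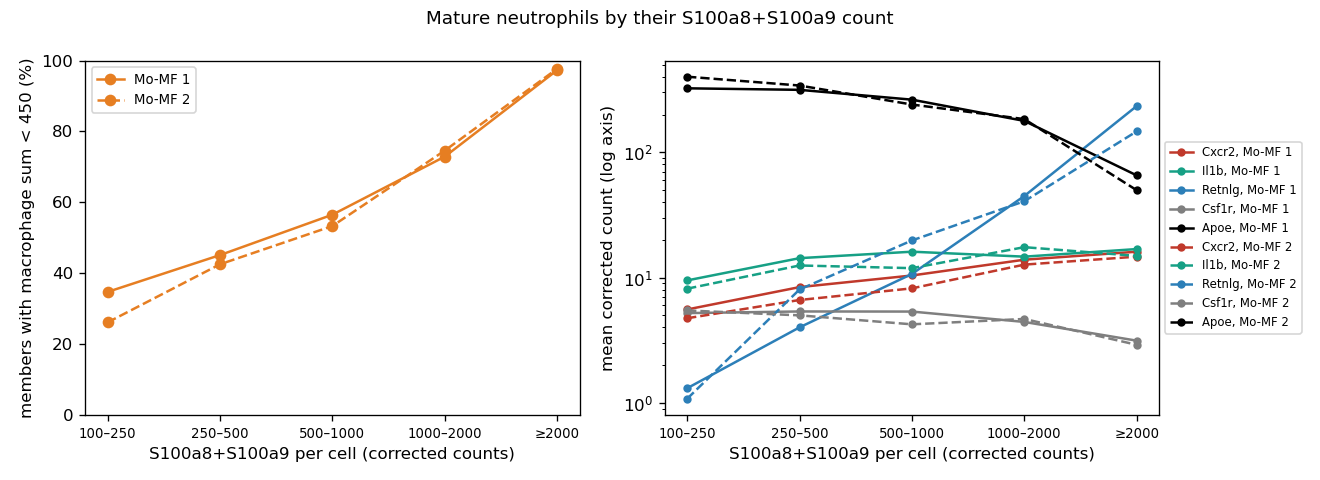
Left, share of members with a macrophage marker sum below 450 (%); right, mean corrected count of Cxcr2, Il1b, Retnlg, Csf1r and Apoe (log axis), both by the S100a8 and S100a9 count of the cell, with solid lines for Mo-MF 1 and dashed lines for Mo-MF 2. Retnlg climbs from 1.31 and 1.08 to 234 and 147 counts while Apoe drops from 324 and 401 to 65.4 and 49.8.

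Genes entered where the mean, averaged over the 2 groups compared, was at least 0.1. Across the genome, 150 of 8437 such genes were at least 4-fold higher in members than in S100-low cells in both libraries, a share of 1.78%, and 0 (0%) were 4-fold lower. At 2-fold, 403 were higher and 56 lower. Restricted to the lower members, 193 of 7962 genes (2.42%) were 4-fold higher and 179 (2.25%) were 4-fold lower. For the upper members, 83 of 8807 (0.942%) were higher and 0 (0%) lower. All 83 were among the 150, of which they made up 55.3%, and all 150 were among the 193, of which they made up 77.7%. Lower genes were thus past 4-fold when the members with a macrophage sum of 450 or more were left out, and not over all members. In direction alone, 2186 of the 8437 genes were higher in members in both libraries and 5642 lower, against which counts of direction in the lists below are to be read. The median log2 difference over all genes tested was -0.27, and -0.11 after scaling each cell to 10000 counts. Differences in the 2 libraries correlated with r = 0.97 across genes, which share cells and libraries and are not independent.

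The largest differences were in genes of the stefin A cluster. BC100530 had 95.9 and 96.7 counts per member (log2 difference 8.47 and 8.33) and Stfa2 had 43.1 and 42.5 (8.12 and 8.05). Gm5483 had 56.3 and 55.6 counts, Gm5416 had 10.3 and 11, Stfa3 had 9.34 and 9.60, and BC117090 had 2.91 and 2.61. The highest mean of any of them in S100-low cells was 0.201, for BC100530 in Mo-MF 2. Their sequences are so alike that reads may be shared among them, so the split between members of the cluster is uncertain. Of the 15 S100, stefin A and Slfn genes that passed the filter, besides S100a8 and S100a9, 10 were 4-fold higher and 0 lower, with list medians of 2.84 and 2.91. S100a6 and S100a11, which bind calcium in many cell types, were among the 10, with 42.0 and 40.6 counts against 6.88 and 7.10 and with 37.1 and 34.6 against 6.47 and 6.31.

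The bases before the start sites of 4 of these genes show the motifs searched. They were read from the RefSeq annotation of GRCm38.p6, the 250 bases before the annotated start, 5′ to 3′ on the strand of the gene. Capitals mark matches to GAGGAA, the core bound by PU.1 and other ETS factors, or to TTGCNNAA, the core bound by C/EBP factors, on either strand, so that TTCCTC is a match to the first. Cxcr2 and Csf3r are shown for the receptor that marks the cells and the one that chose them, and Lcn2 and Stfa2l1 as a granule and a stefin A gene. All 4 hold a match. The windows of the markers Asprv1, G0s2 and Slfn4, and those of Camp, Il1b, Cxcl2, Cxcl3 and Il1r2, held neither motif. The windows are chr1:74153744-74153993 (plus strand) for Cxcr2, chr4:126024409-126024658 (plus strand) for Csf3r, chr2:32387740-32387989 (minus strand) for Lcn2 and chr16:36156561-36156810 (plus strand) for Stfa2l1.
Cxcr2: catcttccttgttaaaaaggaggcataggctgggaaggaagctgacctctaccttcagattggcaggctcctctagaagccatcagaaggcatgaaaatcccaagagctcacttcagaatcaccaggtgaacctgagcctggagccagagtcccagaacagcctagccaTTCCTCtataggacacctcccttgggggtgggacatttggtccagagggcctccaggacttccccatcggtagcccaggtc
Csf3r: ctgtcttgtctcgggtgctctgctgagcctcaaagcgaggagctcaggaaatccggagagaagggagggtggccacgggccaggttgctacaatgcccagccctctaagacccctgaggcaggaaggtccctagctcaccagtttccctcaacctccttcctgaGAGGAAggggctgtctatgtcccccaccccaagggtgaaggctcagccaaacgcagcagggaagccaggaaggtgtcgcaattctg
Lcn2: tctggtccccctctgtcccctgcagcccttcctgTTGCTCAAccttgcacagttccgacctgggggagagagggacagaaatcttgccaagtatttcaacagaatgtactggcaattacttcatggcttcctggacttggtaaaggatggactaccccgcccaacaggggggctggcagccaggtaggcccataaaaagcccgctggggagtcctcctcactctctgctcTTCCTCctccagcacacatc
Stfa2l1: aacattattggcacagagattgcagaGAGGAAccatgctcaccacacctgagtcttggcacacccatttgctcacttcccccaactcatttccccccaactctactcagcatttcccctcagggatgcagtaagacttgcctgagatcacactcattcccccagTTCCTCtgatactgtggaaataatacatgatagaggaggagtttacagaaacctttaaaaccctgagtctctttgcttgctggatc

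Among the 150 higher genes, 103 had 1 annotated window, and GAGGAA was in 46 of these (44.7%). It was in 23.1% of 5330 windows of genes that passed the filter and 23.0% of 22862 windows of all genes searched. TTGCNNAA was in 16 (15.5%), against 7.39% and 9.60%. Both were in 10 (9.71%), against 1.65% and 1.99%. The search left out the genes of a chromosome. Windows of the stefin A genes Stfa2 and Stfa2l1 are nearly alike in sequence, so matches in related genes are not independent. A match says only that these letters are in the window.

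Of 38 neutrophil surface receptors that passed the filter, besides Csf3r, 17 were 4-fold higher in members than in S100-low cells and 0 lower, and the list medians were 1.45 and 1.43. Il1r2, a decoy receptor for IL-1, had 3.21 and 2.77 against 0.0472 and 0.0469 (log2 difference 4.49 and 4.29). Trem1, an activating receptor that amplifies inflammatory signals, had 2.19 and 1.98 against 0.0101 and 0.0137 (4.38 and 4.19).

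Some pattern and chemoattractant receptors were among the 17 and others were not. Clec4e, or Mincle, a receptor for glycolipids of microbes and dying cells, had 4.71 and 4.28 counts against 0.158 and 0.158. The formyl peptide receptor genes Fpr1 and Fpr2 had 1.87 and 1.88 and 1.76 and 1.68 counts, and both stayed below 0.05 in S100-low cells. Ccr1, a chemokine receptor that macrophages also use, had 9.73 and 9.58 against 1.33 and 1.29 (2.78 and 2.80). Hcar2, the receptor for niacin and beta-hydroxybutyrate, had 1.06 and 0.981 against 0.0207 and 0.0155. Cxcr4, which holds neutrophils in marrow, went the other way, with 1.82 and 2.09 counts in members and 2.91 and 2.75 in S100-low cells, short of 4-fold. C5ar1, the receptor for complement C5a, had log2 differences of 1.23 and 1.25, Clec4d, a C-type lectin, 0.48 and 0.46, and Ccrl2, a chemokine-binding receptor, -0.39 and -0.21.

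**Figure D3:**
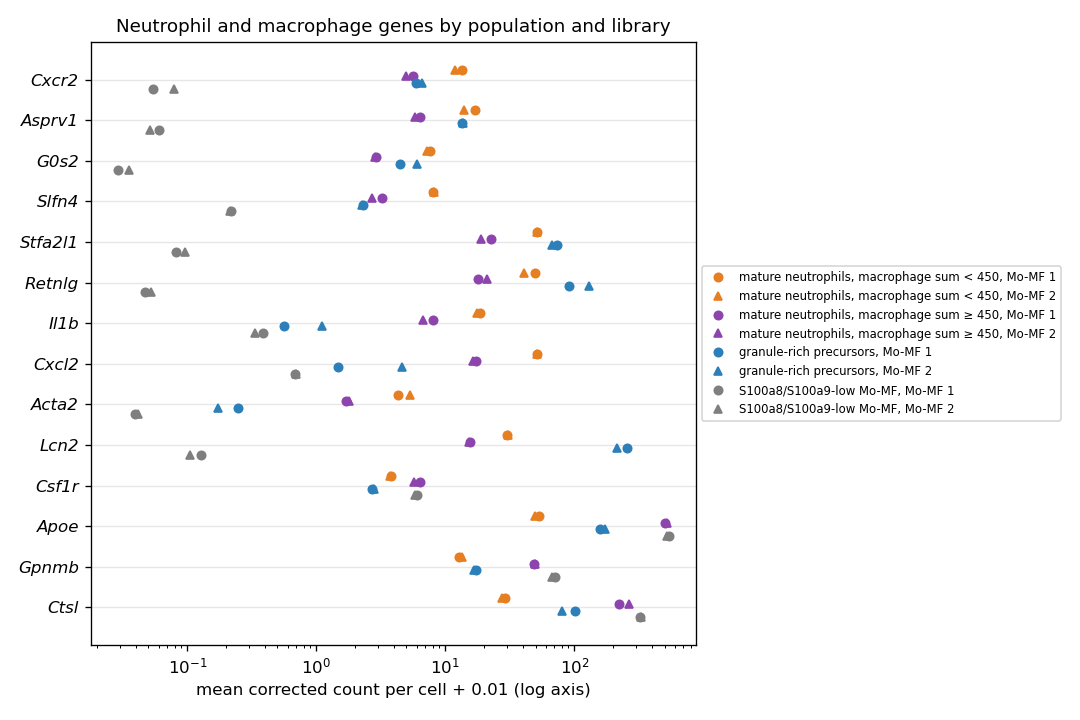
Mean corrected count per cell plus 0.01 (log axis) of neutrophil and macrophage genes in mature neutrophils with a macrophage sum below 450, those at or above 450, granule-rich precursors and S100-low cells, with circles for Mo-MF 1 and triangles for Mo-MF 2. The neutrophil genes, from Cxcr2 to Lcn2, are lowest in S100-low cells, and Apoe and Ctsl are lowest in the mature neutrophils below 450.

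Granule genes are given by list, each named for a wave, and the rule's limit on Ngp, Camp and Ltf bears on the earlier ones. The placing of single genes in a wave was not tested here. Of the 7 primary granule genes 3 passed the filter and 0 were past 4-fold, and Mpo, myeloperoxidase, had only 0.00800 and 0.125 counts in members. Among 7 secondary granule genes that passed, besides those of the rule, 3 were 4-fold higher, namely Lcn2, Olfm4 and Chil3. Without the 29 and 35 members that held at least 5 counts of Ccr2, Chil3 was not past 4-fold, and its log2 difference was -0.59 and 0.47. Lcn2, the iron-scavenging lipocalin, was the most abundant of the 3 higher genes, with 23.4 and 23.5 counts against 0.117 and 0.0948 (log2 difference 6.76 and 6.92). Of 9 tertiary granule and secretory vesicle genes, 4 were 4-fold higher. Mmp9, gelatinase B, had 7.82 and 7.33 counts against 0.372 and 0.393 (4.07 and 3.91), and Hp, haptoglobin, had 10.1 and 9.91 against 0.534 and 0.480 (4.01 and 4.11). Mmp8, neutrophil collagenase, had 16.8 and 17.0 counts but also 4.88 and 4.80 in S100-low cells, and at 1.77 and 1.80 it missed 4-fold over all members but passed it in the lower members, at 2.05 and 2.14. Pglyrp1, a protein that binds bacterial cell walls, and Wfdc21, a small secreted inhibitor-like protein, had 5.12 and 4.99 counts and 5.29 and 6.86 counts, both near 0.04 in S100-low cells.

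Retnlg, which had 35.1 and 31.7 counts per member against 0.0371 and 0.0426, came from few cells. It was detected in 44.3% and 46.9% of members, its median was 0 in both libraries, and the richest 10% of members held 79.3% and 73.2% of its counts. The genes of the NADPH oxidase, the enzyme of the respiratory burst, did not pass 4-fold in any of 6 cases. Ncf1, a cytosolic subunit, had 3.33 and 3.23 counts against 1.71 and 1.66. Cybb, its membrane subunit, had 4.55 and 5.21 counts in members and 6.11 and 5.89 in S100-low cells.

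Among 18 cytokine and chemokine genes that passed, 5 were 4-fold higher than in S100-low cells and 0 lower. Cxcl2, a ligand of CXCR2, was the most abundant, with 36.0 and 35.1 counts per member against 0.671 and 0.691 (log2 difference 5.55 and 5.48). Il1b, interleukin-1 beta, had 13.8 and 12.5 counts against 0.376 and 0.326 (4.86 and 4.89) and was detected in 86.1% and 83.2% of members and 4.72% and 4.04% of S100-low cells. Cxcl3, a further ligand of CXCR2, had 4.24 and 3.51 against 0.0546 and 0.0320, and the richest 10% of members held 79.4% and 78.7% of it. Hdc, the enzyme that makes histamine, had 2.53 and 2.32 counts against 0.0352 and 0.0365, and Csf1, the gene for M-CSF, 0.928 and 0.783 against 0.0836 and 0.0736. Tnf stayed low in members, with 0.109 and 0.220 counts.

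Cxcl2 and Il1b were higher in the members with less macrophage RNA, and some other chemokines were not. Cxcl2 had 51.2 and 51.1 counts in the lower members and 17.3 and 16.5 in the upper ones, and Il1b had 18.4 and 17.5 against 7.97 and 6.71. Ccl2, a chemokine that attracts monocytes, went the other way, with 3.16 and 2.32 counts in the lower members and 7.65 and 4.87 in the upper ones. Ccl7, its close relative, had 1.59 and 1.19 against 6.12 and 4.25. Il1rn, the natural antagonist of the IL-1 receptor, was at 0.739 and 0.515 counts in members and 1.19 and 1.21 in S100-low cells. Arg1 had 0.0580 and 0.0960 counts in the lower members, 1.90 and 1.37 in the upper ones and 1.93 and 1.87 in S100-low cells, and Cd274, the gene for PD-L1, had 1.03 and 1.11, 2.30 and 2.25, and 2.55 and 2.39. Both are in the list of 13 immunosuppression genes, of which 3 (Il1b, Ptgs2 and Slc7a11) were 4-fold higher in members and 0 lower.

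Lipid mediator genes were split. Of 11 that passed the filter, 5 were higher in both libraries, 2 of them 4-fold, and 4 were lower in both, short of 4-fold. The genes furthest below S100-low cells were Ltc4s, Lta4h and Hpgds, and Lta4h was also 4-fold lower in members than in precursors. Ptgs2, cyclooxygenase-2, had 2.32 and 1.75 counts against 0.0576 and 0.0887 (log2 difference 3.94 and 3.29), and Alox5, which starts leukotriene synthesis, 0.653 and 0.566 against 0.0170 and 0.0153 (2.69 and 2.53). Outside this list, Slc7a11, the cystine transporter, had 1.83 and 1.82 counts against 0.0691 and 0.0649 (3.51 and 3.54).

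Acta2, smooth muscle alpha-actin, is known for contractile cells, and it was high in these neutrophils. Its mean was 3.11 and 3.66 counts against 0.0297 and 0.0312 in S100-low cells (log2 difference 4.63 and 4.84), with a count in 68.8% and 63.1% of members and 2.05% and 2.20% of S100-low cells. It had 4.26 and 5.29 counts in the lower members and 1.70 and 1.78 in the upper ones. The other actin and motility genes differed less, since of 28 that passed, 26 were higher in both libraries but 2 past 4-fold, with list medians of 0.56 and 0.47. Lsp1, an actin-binding protein of leukocytes, had 6.30 and 5.74 against 0.328 and 0.318, and the Src family kinase gene Fgr had 1.38 and 1.43 against 0.0710 and 0.0755.

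Transcription factor genes of granulopoiesis were mostly higher, 16 of 19 in both libraries and 4 past 4-fold. The 3 lower in both libraries, short of 4-fold, were Cebpa, at 1.20 and 1.16 counts against 1.64 and 1.54, Atf3 and Irf8. Cebpe, at 0.160 and 0.152 counts in members, did not pass the filter. Mxd1, a MYC antagonist of differentiated cells, had 6.61 and 5.99 counts against 0.391 and 0.361. Cebpd had 7.51 and 7.10 against 0.480 and 0.498, Egr1 had 7.31 and 6.33 against 0.706 and 0.644, and Klf2 had 4.71 and 4.13 against 0.745 and 0.743. Cebpb, the C/EBP gene of emergency granulopoiesis, was the most abundant at 30.0 and 26.5 counts but had 8.62 and 8.53 in S100-low cells (log2 difference 1.79 and 1.62). It passed 4-fold in the lower members, at 2.21 and 2.02.

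Of 29 interferon response genes, 2 were 4-fold higher in members, and the list medians were 0.19 and 0.14. Ifitm1, which restricts virus entry, had 38.6 and 38.4 counts against 2.97 and 2.63, and Isg20, an RNA exonuclease, 1.24 and 1.03 against 0.172 and 0.159. Isg15, a ubiquitin-like protein, had 6.51 and 6.53 against 1.85 and 1.77 and missed 4-fold. Among 24 survival and apoptosis genes 2 passed 4-fold, the death receptor gene Fas with 1.37 and 1.49 counts against 0.172 and 0.172, and the NF-kappaB inhibitor gene Nfkbia with 4.43 and 4.76 against 1.02 and 0.948. Mcl1, on which neutrophil survival depends, had 26.2 and 23.7 counts against 10.4 and 10.4.

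Most glycolysis genes were higher in members, but few passed 4-fold. Of 19 glycolysis genes, 18 were higher in both libraries and 2 past 4-fold, with medians of 0.84 and 0.70. Slc2a3, the glucose transporter GLUT3, had 2.10 and 2.19 counts against 0.0461 and 0.0451, and Slc16a3, a lactate exporter, 5.86 and 5.26 against 0.739 and 0.695. Of 12 glycogen genes, 8 were higher and 3 lower in both libraries and 2 were past 4-fold, and Ppp1r3b, which targets a phosphatase to glycogen, had 2.17 and 2.01 against 0.159 and 0.149. Of 37 respiratory chain subunits 33 were lower in both libraries and 0 past 4-fold. Their medians of -0.19 and -0.28 did not stand apart from the -0.27 of all genes. In direction alone 5642 of all 8437 genes were lower, a smaller share than in this list.

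In the lower members alone, more genes of several lists were 4-fold higher than in S100-low cells. Over all genes the number also rose, from 150 of 8437 (1.78%) to 193 of 7962 (2.42%), and the list counts are to be read against this. The list counts were 5 in place of 4 for tertiary granule genes, 11 in place of 10 for S100, stefin A and Slfn genes and 6 in place of 4 for transcription factors. Interferon, lipid mediator, glycolysis, motility and monocyte genes each had 3 in place of 2, and cell cycle genes had 1 in place of 0. Alox5ap, the partner protein of 5-lipoxygenase, was the lipid mediator gene gained, at 2.12 and 2.06, and Vcan the monocyte gene, at 2.25 and 2.36. Lower by 4-fold in these members were Arg1, at -3.68 and -3.33, the fibronectin gene Fn1 of the monocyte list, at -3.83 and -3.28, and the interferon gene Ifit2, at -2.09 and -2.38, as well as Il7r, at -2.11 and -2.06. The other lists had the same number of genes past 4-fold as over all members, apart from the macrophage markers.

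Genes lower in members included those that mark macrophages. All 20 macrophage markers were lower in both libraries, 0 past 4-fold over all members. In those with a sum below 450, which were selected on these same 20 genes, 4 were past it. Ctsl, the lysosomal protease cathepsin L, had 28.8 and 27.4 counts in the lower members, 221 and 267 in the upper ones and 324 and 326 in S100-low cells. Psap, a precursor of lysosomal activator proteins, had 22.9 and 23.7, 149 and 153, and 194 and 190.3. Mfge8, a bridge to dying cells, Mmp12, macrophage elastase, and Itgax, CD11c, were lower in the same way, with 1.14 and 1.26, 2.98 and 3.25, and 0.0145 and 0.0354 counts in the lower members against 9.89 and 10.9, 23.1 and 23.8, and 1.02 and 0.962 in S100-low cells.

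Against the granule-rich precursors, which hold granule RNA of the earlier stages, 19 of 8051 genes were 4-fold higher in members (0.236%) and 70 were 4-fold lower (0.869%). With the lower members alone, 42 of 7237 were higher (0.580%) and 101 lower (1.40%). Fewer cells stood behind this comparison, 92 and 68 precursors, and 101 of these 160 cells (63.1%) had a macrophage sum below 450. From Mo-MF 1 alone 141 genes passed 4-fold, and from Mo-MF 2 alone 117. The log2 differences of the 2 libraries correlated with r = 0.86 across genes. With members and precursors both limited to a macrophage sum below 450, 108 of 6547 genes were 4-fold higher and 115 lower. Higher genes were then 48.4% of those past 4-fold, against 21.3% over all members and precursors.

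Granule and cell cycle genes were among the 70 lower genes. Primary granule genes were 4-fold lower in 6 of 7 cases and secondary granule genes, besides those of the rule, in 5 of 7, although the rule on Ngp, Camp and Ltf bears on both. Olfm4, a granule glycoprotein, had 0.419 and 0.428 counts in members and 17.5 and 17.8 in precursors (log2 difference -5.08 and -5.08). Cebpe, the transcription factor gene of the secondary granule stage, had 0.160 and 0.152 against 7.07 and 6.60 (-4.78 and -4.73). Serpinb1a, an inhibitor of granule proteases, had 0.245 and 0.301 against 9.87 and 8.22, and Cd177, a surface protein of a subset of neutrophils, 0.475 and 0.523 against 11.3 and 9.85. Ficolin B (Fcnb), Ceacam10, Hmgn2 and Adpgk completed the 8 lowest genes. S100a8 and S100a9 themselves were at 1338 and 1332 and at 2055 and 1982 counts in precursors, above 323 and 337 and 515 and 533 in members.

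The 5 markers did not separate members from precursors by 4-fold. Cxcr2 had 5.90 and 6.53 counts in precursors (log2 difference 0.73 and 0.40), Asprv1 had 13.5 and 13.7 (-0.14 and -0.41), and G0s2 had 4.46 and 6 (0.29 and -0.20, of unlike sign in the 2 libraries). Slfn4 had 2.29 and 2.26 counts (1.31 and 1.28) and Stfa2l1 had 73.7 and 67.4 (-0.94 and -0.89). The markers thus set both kinds of cell apart from macrophages rather than mature from earlier cells.

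The higher set held 2 chemokine genes and Il1b. Cxcl3 had 0.163 and 0.191 counts in precursors (4.04 and 3.63), Il1b had 0.554 and 1.10 (4.40 and 3.39), and Cxcl2 had 1.47 and 4.57 (4.53 and 2.91). These 3 were the only ones of 18 cytokine genes past 4-fold against precursors, and 14 of the 18 were higher in both libraries. Acta2 was again among the 8 highest, at 0.239 and 0.162 counts in precursors (3.24 and 3.84). So were Tnfrsf23, a decoy receptor for the death ligand TRAIL, at 2.22 and 2 counts in members against 0.0978 and 0.132, the metalloreductase gene Steap4, at 2.56 and 2.39 against 0.207 and 0.147, and Ptgs2, at 2.32 and 1.75 against 0.120 and 0.132. All 4 were also 4-fold higher in members than in S100-low cells.

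**Figure D4:**
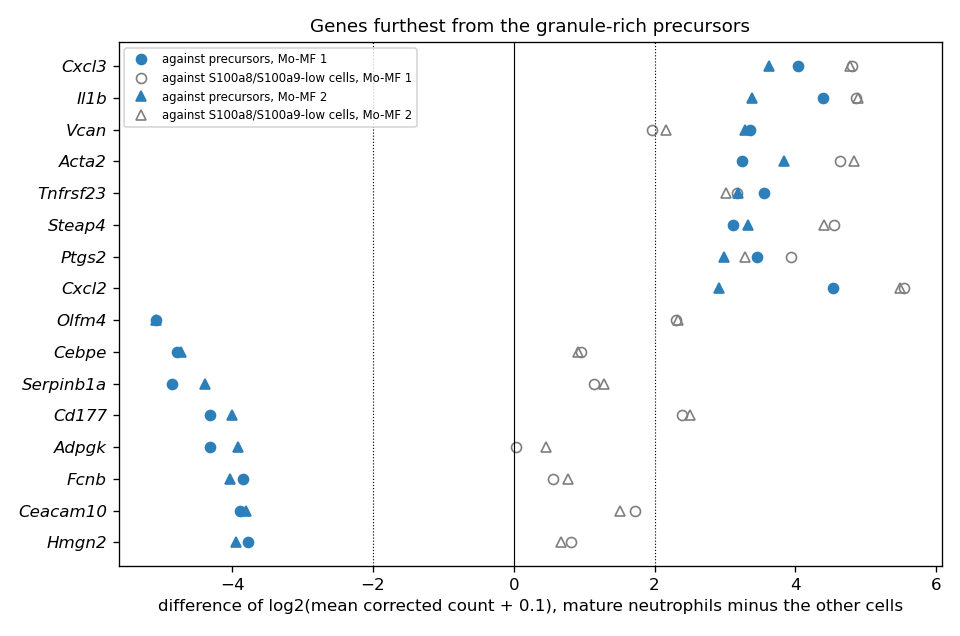
Log2 difference of mature neutrophils from granule-rich precursors (filled) and from S100-low cells (open) for the 8 genes furthest in each direction from precursors, with circles for Mo-MF 1 and triangles for Mo-MF 2 and dotted lines at -2 and 2. Cebpe and Olfm4 are furthest below the precursors, and Acta2, Cxcl2, Cxcl3 and Il1b are above both kinds of cell.

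Vcan, versican, a proteoglycan known from monocytes, was the remaining gene of the 8, with 1.04 and 1.01 counts in members, 0.0109 and 0.0147 in precursors and 0.190 and 0.147 in S100-low cells. It came from few cells, since the richest 10% of members held 95.4% and 89.6% of it. Members with at least 5 counts of Ccr2, the chemokine receptor of inflammatory monocytes, numbered 29 and 35 (a limit chosen after the values were seen), and they held 73.0% and 73.0% of the Vcan counts. They also held 92.9% and 87.5% of the counts of Chil3, a chitinase-like protein, and 89.8% and 88.5% of those of F13a1, coagulation factor XIII. These cells still had 6.59 and 7.31 Cxcr2 counts and 7.28 and 7.57 Csf3r counts. In the other 346 and 334 members Vcan was at 0.303 and 0.302 counts and Cxcr2 at 10.1 and 8.78. Without the Ccr2-bearing cells the log2 difference from S100-low cells was 0.48 and 0.70 for Vcan, in place of 1.97 and 2.17, and -0.59 and 0.47 for Chil3, in place of 2.12 and 2.94, and that of Vcan from precursors was 1.86 and 1.81, in place of 3.36 and 3.28. The counts of 4-fold genes were 148 against S100-low cells and 104 against precursors without them.

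Cell cycle genes gave a mixed picture against S100-low cells. Of 19 that passed, 18 were lower than in S100-low cells in both libraries and 0 past 4-fold, with medians of -0.71 and -0.48, and of 20 against precursors 5 were 4-fold lower. Mki67, a marker of dividing cells, had 0.195 and 0.409 counts in members, 2.43 and 2.71 in precursors and 0.551 and 0.555 in S100-low cells. Hmgb2, a chromatin protein in the same list and its exception, had 7.25 and 8.46 counts in members, 31.2 and 30.5 in precursors and 1.89 and 1.95 in S100-low cells, and it passed 4-fold against the latter in the lower members, at 2.27 and 2.49. The summed mean of the list was 14.5 and 17.6 counts in members, 14.8 and 15.5 in S100-low cells and 50.3 and 53.6 in precursors. Its median per cell was 11 and 12 counts in members and 8 and 8 in S100-low cells, and 59.5% and 65.0% of members against 34.3% and 34.9% of S100-low cells had a sum of at least 10. The mean sum was therefore below that of precursors, and the median sum per cell above that of the macrophages. Hmgb2 alone held 7.25 and 8.46 counts of the mean sum in members, and 1.89 and 1.95 of it in S100-low cells. The sum in members thus rests in large part on this gene, while 18 of the 19 genes were lower in members. Sums without Hmgb2 were not computed.

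Interferon genes were higher than in precursors in both libraries in 27 of 29 cases, with medians of 0.79 and 0.87, and respiratory chain genes in 35 of 37, with medians of 0.29 and 0.26. Over all genes tested this was so for 4213 of 8051, with a median of 0.16, and 0 genes of either list passed 4-fold. In the lower members alone the interferon count was 20 of 27, with 4 lower in both libraries, Ifit2 at -1.06 and -1.02 among them, and medians of 0.48 and 0.61. The respiratory chain count was 27 of 37, with 5 lower, and that of all genes 2712 of 7237, with a median of -0.13.

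Besides the macrophage and monocyte RNA already given, markers of other cell types were at low levels in the members. The summed count of 9 monocyte markers was 15.4 and 16.4 per member against 6.14 and 6.13 per S100-low cell, with 2 of the 9 past 4-fold. Dendritic cell markers summed to 0.168 and 0.133, B cell markers to 0.267 and 0.266, and erythroid and platelet markers to 0.0747 and 0.182. T and NK cell markers summed to 2.63 and 3.30, of which Il7r, which macrophages of these cultures also held at 5.70 and 5.84 counts, made up 2.53 and 3.12. Markers of eosinophils, basophils and mast cells summed to 2.08 and 0.141, and Prss34, a basophil protease, made up 1.41 and 0.00813 of that, the former from 1 of the 375 members of Mo-MF 1. The part of other cell types in the neutrophil values was not tested.

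Cells that met the same rule were abundant in the libraries labelled TAM. They numbered 1255, 1355, 1176 and 1668, between 39.5% and 58.5% of the cells of a library with a median of 52.4%, and their macrophage sums had medians of 16 to 18 counts, all below 450, as were those of 99.5% to 99.9% of the S100-low cells there. The libraries were labelled as macrophages but were rich in neutrophil RNA. The libraries are told apart by the prefix of the cell names, which does not say which TAM sample of the labels each is. Culture and tumor tables were also normalized separately, so that levels are set side by side with no test. In the tumor, 40 of 6064 genes (0.660%) were 4-fold higher in these cells than in S100-low cells in every library and 25 (0.412%) were lower. Of the 40, 36 were among the 150 of the culture (90.0% and 24% of the lists). Of the 25, 3 were among the 179 genes lower in the lower members of the culture (12% and 1.68%). Over all culture members 0 genes were 4-fold lower. The comparison cells also differed. Tumor S100-low cells held 0.0461, 1.07, 1.04 and 1.57 counts of the B cell gene Cd79a and 0.852, 1.41, 1.05 and 1.71 of Ccr7. In culture S100-low cells both stayed at or below 0.00408 counts. Differences from S100-low cells thus have unlike comparison cells in culture and tumor.

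The markers were high in both settings at unlike levels. Cxcr2 had 2.94, 3.36, 3.34 and 3.59 counts in the 4 tumor libraries and 9.87 and 8.64 in the culture. G0s2 was the reverse, at 41.9, 35.4, 33.1 and 41.7 counts in the tumor and 5.46 and 5.20 in the culture. Stfa2l1 had 21.5, 26.3, 26.5 and 25.5, and Retnlg 34.5, 46.7, 35.0 and 44.2. The median corrected total per cell that met the rule was 17199 and 17212 counts in the culture and 7531 to 7578 in the tumor libraries. Since the tables were scaled apart, a gap between culture and tumor levels of a gene is not read further.

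Cxcl2 and Il1b were also high in the S100-low cells of the tumor, in tables that were scaled apart. Cxcl2 had 178, 143, 163 and 164 counts in the tumor cells but 71.9, 68.3, 64.9 and 58.7 in the S100-low cells beside them, with a median log2 difference of 1.32 against 5.55 and 5.48 in the culture. Il1b had 77.7, 64.9, 70.6 and 77.6 against 46.8, 31.0, 40.1 and 39.6, a median difference of 0.89. Acta2 was nearly absent, at 0.0622, 0.0502, 0.0544 and 0.0624 counts, against 3.11 and 3.66 in the culture. Cebpd had 0.728, 1.05, 0.610 and 0.801, against 7.51 and 7.10. Wfdc17, a small secreted protein of myeloid cells, was chosen after the values were seen, at a median difference of 3.07 in the tumor and 0.21 and 0.23 in the culture.

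**Figure D5:**
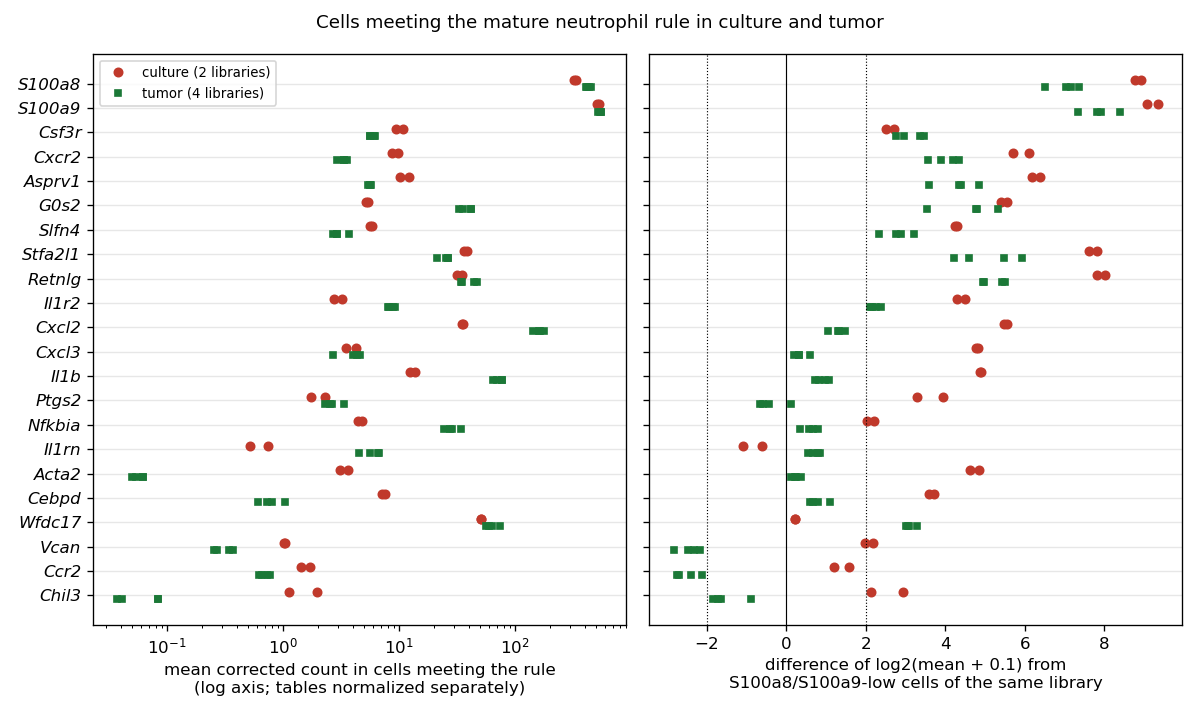
Left, mean corrected count (log axis) of cells that met the rule in 2 culture libraries (circles) and 4 tumor libraries (squares), whose tables were normalized separately; right, their log2 difference from S100-low cells of the same library, with dotted lines at -2 and 2. On these unlike scales the plotted counts of Cxcr2 and Acta2 lie higher in culture and those of G0s2 and Cxcl2 in the tumor. Median totals per cell that met the rule were 17199 and 17212 counts in culture and 7531 to 7578 in the tumor.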

How the data were processed

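Single-cell 3′ RNA libraries (2 Mo-MF, 2 B-MF, 4 TAM) were used and the ATAC-seq libraries of the series were not used here. Per the labels and methods, the authors ran Cell Ranger with STAR on mm10 and normalized filtered cells with SCTransform in Seurat, and the deposited tables hold the natural log of 1 plus the corrected count. The values were converted back, and 0 of 77097456 culture values above 0 missed a whole number by more than 1e-06 of the count. Such corrected counts are depth-adjusted, so no count model was fitted. Raw depth is not given by the sources used here; the lowest number of detected genes in a cell was 1771 in the cultures and 848 in the tumor.

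Members were cut by the rule given above, in Python 3.11.15 with numpy 2.4.6, scipy 1.17.1 and matplotlib 3.10.9. Per library, means over cells were compared as log2(mean + 0.1), for genes whose mean, averaged over the 2 groups and the libraries, was at least 0.1. A gene counted as 4-fold when the difference was at least 2 in size with one sign in every library, and the 6 genes of the rule were left out of counts. On simulated data the steps recovered 200 of 200 changed genes with 0 false calls. Those changes were planted beyond the 4-fold limit, in genes well above the filter, with counting noise alone. The simulation therefore checks the steps and not the error rate in these data. The members of the groups and the 24 gene lists were chosen with earlier results of these data known.

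Named genes were those of the rule, the 5 markers, the 15 largest differences in each direction from S100-low cells and the 8 from precursors, and in each list the 4 most abundant and the 3 most different genes, besides any past 4-fold in opposite directions in culture and tumor (there were none); some results are not reported here. C1qa, Ccr7, Cd79a, Cd274, Clec4e, Csf1, Csf1r, Cxcr4, F13a1, Fpr2, Hcar2, Hdc, Klf2, Ly6g, Maf, Mki67, Mmp9, Mpo, S100a6, S100a11, Tnf and Trem1 were named after their values were seen. Only the share of members among cells was tested, between Mo-MF and B-MF, by an exact permutation test. Alternatives changed the limits of the rule, the comparison cells, the pseudocount, the filter, the scaling and the libraries, and those on macrophage RNA, Cxcr2 and Ccr2 were chosen after seeing the data.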

Additional observations from a re-analysis of the deposited data

Results flagged for a closer look

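Of the 22 genes set side by side in culture and tumor, 4 are given here, in which the cells that met the rule lay on one side of the S100-low cells in both culture libraries and on the other side in all 4 TAM libraries. Vcan had a mean log2 difference of 2.07 in the culture and a median of -2.40 in the tumor. Chil3 had 2.53 and -1.68, and Ccr2 had 1.39 and -2.54. Il1rn was the reverse, at -0.85 in the culture and 0.73 in the tumor. The difference between culture and tumor was not tested. The same held for 63 of the 358 listed or named genes that passed the filter in the culture, so that these 4 are not the only ones. In the culture, members with at least 5 Ccr2 counts held 73.0% and 73.0% of the Vcan counts and 92.9% and 87.5% of the Chil3 counts. Without them Chil3 had differences of -0.59 and 0.47 and so no shared sign in the culture, and Vcan had 0.48 and 0.70. In the tumor, S100-low cells held 3.53, 4.77, 4.44 and 4.79 Ccr2 counts, against 0.562 and 0.511 in those of the culture.

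None of the 23 values tested in the 4 TAM libraries had a library set apart from the other 3 by Dixon's criterion, by which chance would flag about 1 group in 20.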

How the results depend on the processing

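Against S100-low cells, the 150 genes past 4-fold became 37 with a pseudocount of 1, 235 with 0.01 and 459 at 2-fold. With the macrophage sum limited to under 450, 350 or 550 they became 372, 413 and 319, and with a sum of at least 450 they became 83. Single libraries gave 164 to 165. Against precursors, the 89 genes became 20 and 197 with those pseudocounts, 587 at 2-fold, 143 with members under 450, and 223 with members and precursors both under 450. Single libraries gave 117 to 141, the latter from Mo-MF 1 alone. In the tumor, the 65 genes became 14, 252 and 1276 at those settings, and 65 to 83 without 1 library. The pseudocount acts through genes with low means, and the causes of the other changes were not tested. Ngp turned to -3.41 when all other Mo-MF cells, precursors included, were the comparison. The member share in Mo-MF stayed between 3.97% and 7.93% except when members were also limited to 10 counts of Csf1r, Adgre1, Mrc1 and the C1q genes together, which left 0.243% (11 and 14 cells). Of 2531 named-gene values under all alternatives, 2496 kept their sign, and 931 moved by at least the SD of the main differences between libraries. Under the limit of 10 counts of those macrophage genes, 147 of 168 kept their sign. The 170 values without the filter could not change, and many named genes were chosen for large differences, so the number of kept signs is partly fixed by design. With Mo-MF and B-MF libraries of the same number paired (replicate block, added after seeing the data), the mean share stayed 7.29% and the exact p was 0.5, the smallest that 2 pairs allow. The gene differences carry no test and are each taken within a library. Precision is limited by 2 libraries in the cultures, by the 92 and 68 precursors, and by a corrected scale on which the depth of single cells cannot be seen.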

Other observations

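The 10% of members richest in a gene held very different shares of it. Actb, the cytoskeletal actin, was detected in 100% of members and its richest 10% held 21.0% and 19.7% of the counts, whereas for Cd177 that share was 91.6% and 89.1% and for Olfm4 96.2% and 99.4%. Lcn2 lay between, at 41.3% and 40.4%, near Acta2 at 42.7% and 43.8% and Il1b at 42.1% and 42.9%.

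Among lower members, S100a8 and S100a9 had 431 and 457 and 694 and 742 counts, and in the tumor cells that met the rule 414, 435, 454 and 421 and 517, 553, 544 and 558. The tables were normalized separately and no test was made.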
